A study of Mus musculus with 32 samples.

Results

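MEP cells and LSK cells sorted from ruxolitinib-treated mice were compared gene by gene. The comparison used 6 of the 32 libraries of the series, 3 of each cell type, and described the genes with a mean of at least 10 CPM over those 6 libraries, where CPM is the count of a gene scaled to equal library totals. These were 8434 of the 33924 genes in the count table and of the 28378 genes tested. LSK cells are lineage negative, Sca1 positive and Kit positive marrow cells, and MEP cells are megakaryocyte-erythroid progenitors, whose sorting gate the labels do not name. Every library came from marrow of genotype Jak2v617f, in which the activating Jak2V617F mutation had been switched on outside the animal with mRNA for Dre recombinase before transplantation into lethally irradiated recipients. The marrow also carried a tamoxifen-inducible Cre that can delete the mutant allele, but the mice of these 6 libraries were given the JAK1 and JAK2 inhibitor ruxolitinib and no tamoxifen, and are labelled day 7. The 6 libraries form part of batch C, whose 5 vehicle libraries (3 MEP and 2 LSK, labelled day 0) served as the untreated reference. The labels do not give the age and strain of the mice, the dose of ruxolitinib or the promoter that drives Cre. The labels number the libraries of a group but do not say that they came from separate animals, so p-values measure the spread between libraries, which may be technical. That spread was pooled over all groups in a fit of the 32 libraries and not taken from these 6 alone.

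The LSK fraction holds the blood stem cells and the multipotent progenitors, which carry receptors for many cytokines and low levels of several lineage programs. Progenitors that enter the red cell path come under the transcription factors GATA1 and KLF1, depend on erythropoietin and its receptor, and build up heme synthesis, iron uptake and a red cell membrane. JAK2 carries the signal of the erythropoietin receptor and other cytokine receptors to STAT5, and the V617F form signals without the hormone.

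Promoters of genes on which the comparison turned are shown first, as the 250 bases before the transcription start, 5′ to 3′ on the strand of the gene (RefSeq sequences, build GRCm38.p6). The first 5 belong to red cell genes that were higher in MEP cells. They are Rhd (chr4:134864286-134864535, plus strand) and Ermap (chr4:119189996-119190245, minus strand), which encode blood group proteins, Add2 (chr6:86028431-86028680, plus strand), which encodes a membrane skeleton protein, and the transcription factor genes Gata1 (chrX:7967911-7968160, minus strand) and Klf1 (chr8:84901732-84901981, plus strand). Capitals mark matches to the GATA motifs, searched on both strands, of which no window held more than 1. The motifs were AGATAA or the form that ends in G, namely AGATAG, and those that begin with T, which are TGATAA and again with a final G the motif TGATAG.
Rhd: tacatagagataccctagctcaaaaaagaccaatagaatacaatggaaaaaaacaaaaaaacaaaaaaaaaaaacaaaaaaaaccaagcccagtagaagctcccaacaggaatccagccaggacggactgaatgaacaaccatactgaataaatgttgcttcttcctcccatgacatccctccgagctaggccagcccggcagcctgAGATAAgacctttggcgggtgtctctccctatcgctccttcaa
Ermap: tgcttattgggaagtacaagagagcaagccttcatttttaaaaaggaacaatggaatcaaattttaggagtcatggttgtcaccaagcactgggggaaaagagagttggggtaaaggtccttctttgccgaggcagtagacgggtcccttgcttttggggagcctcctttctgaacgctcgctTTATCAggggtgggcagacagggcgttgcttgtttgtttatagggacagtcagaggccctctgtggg
Add2: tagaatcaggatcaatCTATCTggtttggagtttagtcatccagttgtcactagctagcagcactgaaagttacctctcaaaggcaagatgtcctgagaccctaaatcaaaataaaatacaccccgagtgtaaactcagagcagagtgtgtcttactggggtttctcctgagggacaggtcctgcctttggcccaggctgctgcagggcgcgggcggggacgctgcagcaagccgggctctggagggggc
Gata1: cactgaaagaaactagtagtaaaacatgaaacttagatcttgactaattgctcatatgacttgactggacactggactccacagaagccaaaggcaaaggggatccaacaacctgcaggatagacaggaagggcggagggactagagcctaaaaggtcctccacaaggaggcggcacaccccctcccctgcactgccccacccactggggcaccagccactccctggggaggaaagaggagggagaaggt
Klf1: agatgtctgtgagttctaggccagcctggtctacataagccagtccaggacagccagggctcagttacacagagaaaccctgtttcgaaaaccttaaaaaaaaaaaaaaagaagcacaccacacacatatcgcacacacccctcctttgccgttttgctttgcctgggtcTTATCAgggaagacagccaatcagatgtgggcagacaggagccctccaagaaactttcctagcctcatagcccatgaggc

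The other 3 belong to stem cell genes that were lower in MEP cells. They are Procr (chr2:155750967-155751216, plus strand), which encodes the endothelial protein C receptor, Cd34 (chr1:194938571-194938820, plus strand), which encodes a surface sialomucin, and Meis1 (chr11:19018970-19019219, minus strand), which encodes a homeobox factor. Capitals mark the ETS motif GGAAGT, searched on both strands.
Procr: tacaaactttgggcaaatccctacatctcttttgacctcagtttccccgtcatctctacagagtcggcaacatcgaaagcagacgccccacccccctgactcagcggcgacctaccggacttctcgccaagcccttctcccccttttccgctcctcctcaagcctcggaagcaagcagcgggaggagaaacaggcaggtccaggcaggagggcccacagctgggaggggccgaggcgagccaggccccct
Cd34: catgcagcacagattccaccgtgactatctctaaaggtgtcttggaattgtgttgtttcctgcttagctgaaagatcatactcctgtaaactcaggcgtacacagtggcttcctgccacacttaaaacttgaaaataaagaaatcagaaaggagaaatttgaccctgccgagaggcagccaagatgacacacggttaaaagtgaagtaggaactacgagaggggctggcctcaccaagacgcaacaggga
Meis1: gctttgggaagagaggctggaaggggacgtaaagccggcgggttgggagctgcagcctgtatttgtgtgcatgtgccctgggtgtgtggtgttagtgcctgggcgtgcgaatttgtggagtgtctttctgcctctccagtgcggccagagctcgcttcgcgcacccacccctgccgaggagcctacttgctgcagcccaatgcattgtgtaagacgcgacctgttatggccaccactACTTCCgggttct

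A GATA motif stood once in the windows of Rhd, Ermap, Add2 and Klf1 and in none of the bases printed for Gata1. The Cd34 window also held 1 GATA motif, left in lower case, and the ETS motif stood once in the Meis1 window and not in those of Procr and Cd34. Counted per gene symbol, 29.7% of the 27025 genes with a promoter of this length in the table held a GATA motif and 22.2% the ETS motif. On the same count, 36 of 105 matched genes that were over 4-fold higher in MEP cells in both scalings described below held a GATA motif (34.3%). The share was 22.1% of 438 matched genes over 4-fold lower in MEP cells, and 19.8% of the 6117 expressed genes with a promoter entry. The ETS motif was held by 21.9%, 28.1% and 29.5% of the same sets. A match describes the letters of the window and is not a bound site.

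Total counts were 45901948, 55473241 and 40278670 in MEP replicates 1, 2 and 3 and 49657790, 41360353 and 26511752 in LSK replicates 1, 2 and 3. MEP replicate 3 had a count for 18876 genes, against 24709 and 23850 in the other two MEP libraries and 25090 to 30398 in the LSK libraries. The labels were checked against markers, given as summed CPM over the libraries. The 9 LSK markers summed to 2670 to 3130 in LSK and 531 to 693 in MEP libraries, and the 8 MEP markers to 1270 to 1740 and 3880 to 4160. Kit is in both sets, at 397 to 492 CPM in MEP and 781 to 1239 in LSK libraries. It made up most of the sum for the markers of the other cell type. Kit and Ly6a, which encodes Sca1, were used in the LSK sort and are no independent check. Markers of granulocyte and monocyte progenitors summed to 2710 to 4860 in LSK and 29.3 to 105 in MEP libraries, those of megakaryocytes to 880 to 975 and 113 to 223, and those of B cells to 295 to 594 and 2.14 to 5.97. Neutrophil, T cell and macrophage markers summed to at most 8.11, 3.02 and 42.9 in any of the 6 libraries, and no marker was at 0 in all 3 libraries of a cell type. In sorted bulk samples, fewer cells of a type and less RNA per cell cannot be told apart. The threshold of 10 CPM fell between Zfp429 (10.0011), Ppp2r2d (10.0038) and Dok3 (10.0126) just inside and Nckipsd (9.99194), Zfp109 (9.9915) and Eepd1 (9.98803) just outside.

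MEP and LSK cells differed in 4328 of the 8434 expressed genes under ruxolitinib. In edgeR's quasi-likelihood test on all 32 libraries, which called 51.3% of them, 3042 of them (36.1%) were higher and 1286 (15.2%) lower in MEP cells at an adjusted p under 0.05, and 4106 did not pass. Over all 28378 genes tested the test called 12073 (42.5%), 12.3% higher and 30.2% lower. The split depends on the scaling of the libraries. Of the 19944 tested genes below the 10 CPM threshold, 7295 were lower in MEP cells and 450 higher, and these genes held 1.09% to 1.15% of the counts in MEP and 2.09% to 3.85% in LSK libraries. With factors over all genes tested (here all-gene scaling), the median log2 difference of the expressed genes was 0.49 in favour of MEP cells. With factors and adjustment over the 8434 expressed genes alone (expressed-gene scaling), the median was 0.00 and edgeR called 4626 genes (54.8%), 2196 higher (26%) and 2430 lower (28.8%). Genes higher in MEP cells thus made up 70.3% of the calls in the first scaling and 47.5% in the second. All 2196 higher calls of the second were also higher in the first, all 1286 lower calls of the first were also lower in the second, and no gene was called in opposite directions. Counts of gene lists below are read against these shares over all expressed genes in the same scaling. Log2 differences below are MEP minus LSK in all-gene scaling, with standard errors from the fit. A gene was named as changed from that scaling, and the other is given where it alters the call or the sign. CPM values use the plain library total.

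**Figure D1:**
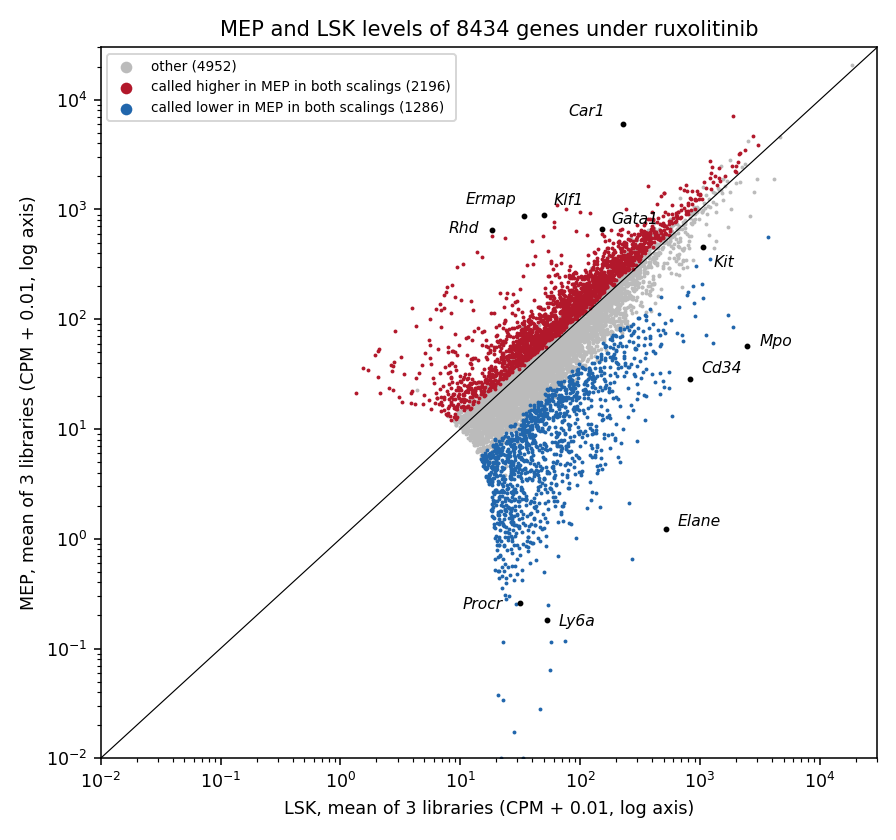
Mean level of each of the 8434 expressed genes in MEP (vertical) and LSK libraries (horizontal), both as CPM + 0.01 on log axes, 3 libraries each. Red points were called higher in MEP cells in both scalings (2196), blue points lower in both (1286), black points are genes named in the text, and the line marks equal levels.

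Without any scaling beyond the library total, the MEP and LSK libraries did not overlap for 5757 expressed genes (68.3%). All MEP libraries were above all LSK libraries for 2272 of these (26.9%), and all LSK libraries above all MEP libraries for 3485 (41.3%). Genes at 10 CPM or more in both cell types numbered 7235, of which 2897 were called higher and 499 lower in MEP cells by edgeR in all-gene scaling, and 2066 and 1481 in expressed-gene scaling. A further 1046 genes reached 10 CPM in LSK cells alone and 153 in MEP cells alone. In all-gene scaling edgeR called 787 of the 1046 lower and 0 higher, and 145 of the 153 higher and 0 lower. Such genes passed the threshold through a single cell type and had little room to go the other way. The counts of gene lists below include them. Called differences of over 4-fold numbered 297 higher and 618 lower in all-gene scaling and 147 and 809 in expressed-gene scaling. Of these falls, 517 and 611 were genes at 10 CPM in LSK cells alone, which passed the threshold through their LSK level. Among genes at 10 CPM or more in both cell types, 207 were higher and 101 lower in all-gene scaling. In expressed-gene scaling these were 79 and 198, so the direction among them depended on the scaling.

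Genes of the red cell membrane and blood groups were the expressed list with the largest median rise in MEP cells among the 32 lists. Of 15 expressed members 12 rose in both scalings, with a median log2 difference of 4.32 against 0.49 over all expressed genes. Rhd (chromosome 4, 134864536 to 134896172, plus strand), which encodes the Rh blood group protein, stood at 665, 682 and 623 CPM in the MEP libraries and 23.3, 23.2 and 8.34 in the LSK libraries. The MEP libraries were close to one another and far above every LSK library, and the log2 difference was 5.79 ± 0.59 (SE; edgeR adjusted p = 8.25e-09). Ermap (chromosome 4, 119175457 to 119190011, minus strand), the Scianna blood group protein of red cells, had 925, 815 and 901 CPM against 34.7, 42.2 and 25. Rhag, the partner of Rhd in the membrane, had 523, 489 and 654 against 21.8, 30.3 and 19.2. Both sets of libraries were apart, by 5.34 ± 0.56 and 5.18 ± 0.50 on the log2 scale. Add2, which encodes beta adducin, rose by 5.66 ± 0.49, the water channel gene Aqp1 by 4.21 ± 0.40 and the urea transporter gene Slc14a1 by 1.21 ± 0.30, with edgeR adjusted p from 6.23e-10 to 0.0021. Slc2a1, a glucose transporter gene, was the only member that fell, by 2.25 on the log2 scale in all-gene scaling. Cd47 had overlapping libraries of 330, 285 and 360 against 496, 356 and 406 CPM, and its log2 difference was 0.27 ± 0.46 in all-gene and -0.20 in expressed-gene scaling.

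Among the transcription factors of the erythroid lineage, 9 of 19 expressed members rose and 1 fell in all-gene scaling, and 8 rose and 6 fell in expressed-gene scaling. The share called in all-gene scaling was near the 51.3% over all expressed genes, where 36.1% were higher and 15.2% lower. In expressed-gene scaling 26% of all expressed genes were higher and 28.8% lower. Gata1 (chromosome X, 7959260 to 7978071, minus strand) had 700, 647 and 626 CPM in MEP and 154, 149 and 149 in LSK libraries. Klf1 (chromosome 8, 84901928 to 84905291, plus strand) had 1026, 908 and 758 against 70.4, 51 and 29.2. Every MEP library was above every LSK library for both genes, but the LSK libraries were level for Gata1 and spread by over 2-fold for Klf1. The log2 differences were 2.79 ± 0.31 for Gata1 and 4.80 ± 0.96 for Klf1, with edgeR adjusted p of 4.01e-08 and 0.000229. Gfi1b, a repressor that red cell and platelet precursors need, rose by 2.54 ± 0.31. Sox6, a late erythroid regulator, was the member that fell, by 1.10 on the log2 scale. Nfe2, a factor of globin and platelet genes, stood at 257, 232 and 265 CPM against 593, 718 and 708. The LSK libraries were higher without exception, and its log2 difference was -0.75 ± 0.41 in all-gene scaling, which did not pass, and -1.24 in expressed-gene scaling, which did (edgeR adjusted p = 0.128 and 0.00205).

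Heme synthesis genes rose with the membrane genes. Of 14 expressed members 12 rose in all-gene scaling, with a median log2 difference of 2.15, and 11 rose in expressed-gene scaling. Alad, which makes porphobilinogen, had 654, 714 and 568 CPM in MEP and 226, 219 and 200 in LSK libraries, and every MEP library was above every LSK library. It rose by 2.26 ± 0.36, Urod, which decarboxylates uroporphyrinogen, by 1.90 ± 0.35, and Slc25a38, the mitochondrial glycine carrier, by 3.26 ± 0.42 (edgeR adjusted p from 3.72e-07 to 7.23e-05 over these 3 genes). Alas1, the housekeeping form of the first enzyme, moved the other way. It had 80.2, 78.5 and 71.1 CPM in MEP against 166, 167 and 134 in LSK libraries, and its log2 difference was -0.36 ± 0.34 in all-gene scaling and -0.85 in expressed-gene scaling, where edgeR called it lower (adjusted p = 0.0052). The erythroid form Alas2 was below the 10 CPM threshold, at 4.79, 3.52 and 3.3 CPM in MEP and 1.63, 4.25 and 0.34 in LSK libraries.

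Iron handling followed in part, with 8 of 12 expressed members higher and 1 lower in all-gene scaling and 5 and 2 in expressed-gene scaling. All expressed genes had 36.1% higher and 15.2% lower in the first scaling, and 26% and 28.8% in the second. Tfrc (chromosome 16, 32608920 to 32632794, plus strand), the transferrin receptor through which red cell precursors take up iron, had 441, 548 and 738 CPM in MEP and 46.3, 62.9 and 37.1 in LSK libraries. Its log2 difference was 4.17 ± 0.43 (edgeR adjusted p = 8.35e-09). Steap3, which reduces iron in the endosome, rose by 3.61 ± 0.40 and the iron exporter gene Slc40a1 by 4.55. Ncoa4, the receptor that sends ferritin to the lysosome, fell by 1.26 on the log2 scale. Of the ferritin genes, Ftl1 rose by 1.27 ± 0.38 in all-gene scaling alone, and the difference of 1.34 ± 0.63 for Fth1 passed in neither scaling. Reads of Fth1 and Ftl1 may be shared with pseudogene copies.

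The globin genes did not separate the cell types. Of the 8 globin and globin chaperone genes tested 3 reached 10 CPM, and these did not pass edgeR's test (adjusted p = 0.317 for Hba-a1, 0.762 for Hbb-b1 and 0.515 for Hbb-b2). Hba-a1 stood at 38.1, 58.8 and 33.1 CPM in MEP and 31.4, 45.2 and 11.4 in LSK libraries, a log2 difference of 1.23 ± 1.004. Hbb-b1 stood at 15, 20.5 and 10.8 against 16.9, 32.1 and 7.73, and its difference of 0.39 ± 0.98 turned to -0.11 in expressed-gene scaling. Hbb-b2 differed by 0.61 ± 0.75. The libraries overlapped for all 3 genes, near-identical copies may share their reads, and differences of this size were not detectable against the spread.

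Other genes among the 12 largest rises, which pass over unnamed transcripts, included transporters and signalling genes. Atp7b, which encodes a copper pump, had 155, 127 and 96 CPM in MEP and 3.52, 4.98 and 3.4 in LSK libraries, a log2 difference of 5.68 ± 0.55. Sphk1, the sphingosine kinase, rose by 5.61 ± 0.58, the glutamine carrier gene Slc38a5 by 5.57 ± 0.51 and the sterol exporter gene Abcg4 by 5.50 ± 0.47. Car1 (chromosome 3, 14766216 to 14808368, minus strand), the early erythroid carbonic anhydrase, had 5437, 5268 and 7235 CPM against 281, 234 and 163. Cldn13, a claudin of red cell precursors, had nearly level MEP libraries, at 313, 316 and 318 CPM against 13.7, 11.2 and 6.64. Crip2, Sfrp4 and Spon2 completed the 12, with log2 differences of 5.33 ± 0.55, 5.28 ± 0.63 and 5.28 ± 0.58. All 12 kept their direction and their call in every alternative setting run, but these settings reuse the same libraries. They were chosen among called genes whose MEP libraries all stood above all LSK libraries. Neither that separation nor the kept calls are therefore a separate result. Atp7b, Add2, Abcg4, Crip2, Sfrp4 and Spon2 averaged below 10 CPM in LSK libraries and passed the threshold through their MEP level. Such genes had little room to be other than higher.

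**Figure D2:**
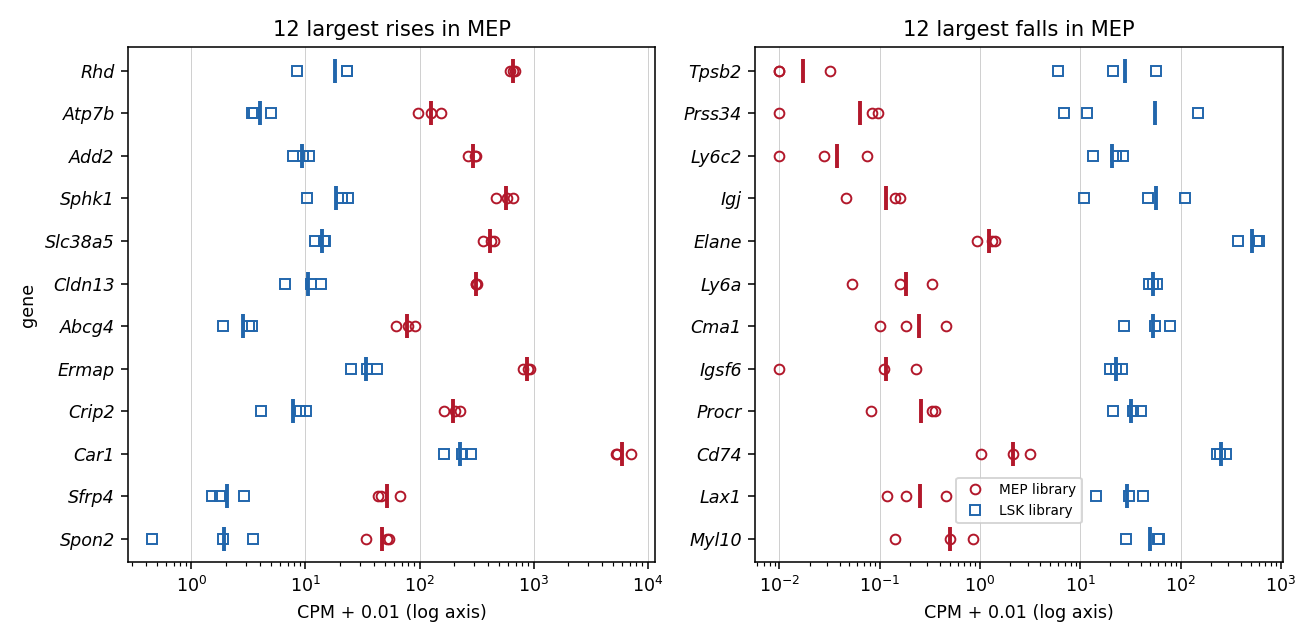
CPM + 0.01 (log axis) of the 12 genes with the largest rises and the 12 with the largest falls in MEP cells under ruxolitinib, passing over immunoglobulin segments (Igkc among them) and unnamed transcripts. Circles are MEP libraries and squares LSK libraries, 3 each, with bars at the means of CPM + 0.01. Genes were chosen among those called with the cell types apart, and scatter among LSK libraries is widest for Prss34, Igj and Tpsb2.

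Cytokine receptors fell on balance, with 12 of 20 expressed members lower and 3 higher in all-gene scaling, and 15 and 3 in expressed-gene scaling. The median log2 difference was -1.98. The 3 that rose were Epor, Ifngr1 and Il1rl1. Epor (chromosome 9, 21958897 to 21963506, minus strand), the erythropoietin receptor, had 336, 325 and 284 CPM in MEP and 34, 42.1 and 32.6 in LSK libraries, a log2 difference of 3.79 ± 0.48 (edgeR adjusted p = 3.43e-07). Ifngr1, a chain of the interferon gamma receptor, rose by 1.66 ± 0.32. Flt3, Csf3r and Csf2rb, receptors of early and granulocytic progenitors, fell by 5.07, 4.83 and 4.13 on the log2 scale. Flt3 and Csf3r were below 10 CPM in every MEP library and passed the threshold through their LSK level. Kit was used in the LSK sort, so its level is described without a test, at 464, 397 and 492 CPM in MEP and 781, 1239 and 1186 in LSK libraries. Kit is nonetheless a member of this list. It is not among the 12 lower calls of all-gene scaling but is among the 15 of expressed-gene scaling.

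The kinase that ruxolitinib targets did not differ detectably between the cell types. Jak2 (chromosome 19, 29251828 to 29313080, plus strand) had 12, 12.1 and 21.9 CPM in MEP and 19.6, 21.4 and 25.9 in LSK libraries, with a log2 difference of 0.07 ± 0.28 in all-gene and -0.38 ± 0.26 in expressed-gene scaling (edgeR adjusted p = 0.851 and 0.237). The counts cover the whole gene and do not check the mutation. Of 11 expressed JAK and STAT genes, 4 fell in both scalings, among them Stat4, Jak3 and Stat3, and Tyk2 rose by 0.86 ± 0.33 in all-gene scaling alone. Its call was lost without LSK replicate 1 (0.73, edgeR adjusted p = 0.0993) or LSK replicate 3 (0.85, edgeR adjusted p = 0.0967). Stat3 had 56.6, 41.6 and 63.3 CPM in MEP and 260, 281 and 327 in LSK libraries, a log2 difference of -1.78 ± 0.50. Stat5a, which transmits erythropoietin signals, had 226, 234 and 213 against 197, 222 and 234, and its difference of 0.73 ± 0.32 did not pass (edgeR adjusted p = 0.0612). Jak1 and Stat6 differed by 0.38 ± 0.49 and 0.35 ± 0.35 in all-gene and by -0.11 and -0.14 in expressed-gene scaling.

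Of 15 expressed targets of STAT5 and SOCS inhibitors, 4 were higher and 4 lower in all-gene scaling, a share near the 51.3% called over all expressed genes, and 1 and 5 in expressed-gene scaling. Socs2, a feedback inhibitor of cytokine signalling, had 2.85, 3.1 and 2.48 CPM in MEP and 24.2, 30.2 and 30.6 in LSK libraries, a log2 difference of -2.64 ± 0.33 (edgeR adjusted p = 2.72e-07). Serpina3g, a serine protease inhibitor with close copies in its family, had 22.4, 22.3 and 35.5 against 455, 360 and 453. For both genes every LSK library was above every MEP library. Socs2 passed the 10 CPM threshold through its LSK level. Bcl2l1 and Sh2b3 fell, and Podxl rose in both scalings. Osm, which encodes oncostatin M, had 21.1, 23.9 and 21.2 CPM in MEP against 18.9, 18.6 and 19.4 in LSK libraries, and its rise of 0.89 ± 0.32 was lost in expressed-gene scaling (edgeR adjusted p = 0.0244 and 0.142). Socs4 and Socs7 likewise rose in all-gene scaling alone, by 1.07 ± 0.41 and 0.75 ± 0.30. The calls were lost for Osm without LSK replicate 2 or 3 or MEP replicate 2 (0.68 to 0.89), for Socs4 without LSK replicate 2 or 3 or MEP replicate 1 or 2 (0.93 to 1.02) and for Socs7 without LSK replicate 1 or 2 or MEP replicate 1 or 2 (0.51 to 0.76). Cish and Pim1 were below 10 CPM over the 6 libraries, with 2.31, 1.19 and 1.59 against 3.89, 9.14 and 10.2 CPM for Cish and 0.414, 0.198 and 0.894 against 2.36, 2.22 and 2.49 for Pim1.

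Stem cell genes were lower in MEP cells. Of 17 expressed transcription factors of the stem cell list 14 fell, and Mllt3 was the only one that rose. Meis1 (chromosome 11, 18879817 to 19018985, minus strand) had 21.3, 25.4 and 50.7 CPM in MEP and 376, 500 and 507 in LSK libraries, a log2 difference of -3.24 ± 0.43 (edgeR adjusted p = 6.09e-07). Hlf and Mecom, factors of stem cell self-renewal, had 0.741 to 2.28 and 0.992 to 2.51 CPM in MEP libraries and 61 to 96.3 and 45 to 82.3 in LSK libraries. Both passed the threshold through their LSK level and had little room to be other than lower. Etv6, an ETS repressor, fell by 2.23 on the log2 scale. Gata2, which precedes Gata1 in early progenitors, was less far apart, with 103, 71.8 and 60.1 CPM against 259, 171 and 224. Its difference of -0.79 ± 0.46 did not pass in all-gene scaling and that of -1.30 did in expressed-gene scaling (edgeR adjusted p = 0.158 and 0.0049).

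Surface markers of stem cells and progenitors had a median log2 difference of -3.84, with 18 of 24 expressed members lower and Cd44, an adhesion receptor gene, the only one higher. Cd34 (chromosome 1, 194938819 to 194961279, plus strand) had 9.19, 31.8 and 44.6 CPM in MEP and 867, 829 and 776 in LSK libraries, a log2 difference of -4.27 ± 0.59 (edgeR adjusted p = 1.47e-06). MEP replicate 1 was several-fold below the other 2 MEP libraries. Procr (chromosome 2, 155751117 to 155755471, plus strand) had 0.349, 0.0721 and 0.323 against 21.4, 40.2 and 33.8, a difference of -6.38 ± 0.72. Procr passed the threshold through its LSK level. Ly6a encodes Sca1, on which the LSK cells were sorted, and is given as a description, at 0.0436, 0.325 and 0.149 CPM in MEP and 58.2, 48 and 53.2 in LSK libraries. The counts of this list were taken without leaving out genes used in the sort, such as Kit. CD34 and the Fc receptor of Fcgr3 are commonly used to gate MEP cells, but the labels do not say whether they were used. Fcgr3 had 0.806, 0.811 and 2.38 CPM in MEP and 30.7, 21.1 and 15.8 in LSK libraries. Of the 4 expressed GIMAP genes, small GTPases of lymphoid and stem cells, Gimap1, Gimap5 and Gimap6 fell by 4.07, 3.62 and 3.21 on the log2 scale. Gimap9 was lower in expressed-gene scaling alone (-0.25 in all-gene and -0.73 in expressed-gene scaling).

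Megakaryocyte and platelet genes were also lower in MEP than in LSK cells under ruxolitinib. Of 22 expressed members 19 fell, with a median log2 difference of -2.15, and Gata1, shared with the erythroid list, was the only one that rose. Itga2b (chromosome 11, 102453297 to 102470122, minus strand), the platelet integrin alpha IIb, had 70.1, 97.8 and 126 CPM in MEP and 553, 537 and 619 in LSK libraries, a difference of -1.91 ± 0.39 (edgeR adjusted p = 0.000261). Pf4, a platelet chemokine, had 27.3, 49.2 and 83.9 against 300, 280 and 302. The LSK libraries were level for both, and the MEP libraries were spread for Pf4, whose fall of 1.88 on the log2 scale was lost without MEP replicate 1 (-1.55, edgeR adjusted p = 0.0718).

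Genes of granulocyte and monocyte progenitors had the lowest median log2 difference among lists with 3 or more expressed members, -4.51, and 14 of 17 fell in both scalings. Members such as Elane, Ctsg and Ms4a3 were below 10 CPM in every MEP library and passed the threshold through their LSK level. Such genes had little room to be other than lower. Of the 1046 genes at 10 CPM in LSK cells alone, 787 were called lower and 0 higher in all-gene scaling. Elane (chromosome 10, 79886247 to 79888215, plus strand), neutrophil elastase, had 0.915, 1.32 and 1.39 CPM in MEP and 574, 599 and 376 in LSK libraries, a difference of -8.11 ± 0.69 (edgeR adjusted p = 5.16e-10). Mpo (chromosome 11, 87793581 to 87804413, plus strand), myeloperoxidase, had 16.3, 79.9 and 75 against 3287, 2311 and 1857. Elane was thus near 1 CPM in every MEP library while Mpo stood above 10 in each. Prtn3 and Ctsg, further granule proteases, fell by 4.25 and 4.67 on the log2 scale. Lyz2, the myeloid lysozyme, and Ly6c2, a monocyte surface protein, fell by 3.79 and 8.75.

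Most expressed mast cell genes and 4 of 6 expressed lymphoid genes were lower in MEP cells. Of the 6 expressed lymphoid genes Lax1, Dntt, Cd79b and Lck fell, whereas Ikzf1 and Bcl11a, zinc finger factors, rose by 2.13 ± 0.35 and 1.23 ± 0.35. Of 10 expressed mast cell, basophil and eosinophil genes 9 fell and Il1rl1 rose. Prss34, a basophil protease gene, had 0.0871, 0 and 0.0745 CPM in MEP and 11.5, 148 and 6.83 in LSK libraries, so LSK replicate 2 carried most of its counts. Tpsb2, a mast cell tryptase gene, had 57.1, 5.95 and 21.2 CPM in LSK libraries and 1 count in the 3 MEP libraries together. The ratio of the pooled counts, 3643 in LSK and 1 in MEP, was 4390 after correction for library totals, with an exact Poisson interval of 788 to 173000 that covers counting error only. Igj, the joining chain of secreted antibodies, had 47.6, 112 and 10.9 CPM in LSK libraries and at most 0.149 in MEP libraries. Under limma voom with the replicate number as a random block, Prss34, Tpsb2 and Igj kept their direction and did not pass (adjusted p = 0.197, 0.0622 and 0.0857, limma).

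All 8 expressed MHC class II genes fell in both scalings. Cd74, the invariant chain, had 1.02, 2.13 and 3.15 CPM in MEP and 250, 230 and 285 in LSK libraries, a log2 difference of -6.32 ± 0.81 (edgeR adjusted p = 4.1e-07), and H2-Aa, the alpha chain of the A molecule, fell by 5.64. H2-Ab1, the beta chain, kept 37, 37.3 and 31.6 CPM in MEP libraries against 323, 347 and 385. Cd74 was below 10 CPM in every MEP library and passed the threshold through its LSK level. MHC class I genes differed less, with 6 of 15 lower in all-gene and 12 in expressed-gene scaling. B2m, the light chain, had 630, 584 and 874 CPM against 1815, 1691 and 1644, and its difference was -0.68 ± 0.34 in all-gene and -1.14 in expressed-gene scaling (edgeR adjusted p = 0.1 and 8.12e-05). Reads of the H2-Q and H2-T genes can be shared among near-identical members. Of 28 expressed interferon-stimulated genes 20 fell in all-gene and 22 in expressed-gene scaling, with a median of -1.63. Iigp1, an immunity-related GTPase, Oasl2, an oligoadenylate synthetase-like protein, and Irf1, an interferon regulatory factor, fell by 4.77, 4.38 and 3.77 on the log2 scale.

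Ribosome biogenesis was the growth program that had the largest share of members called. Of 35 expressed members 34 rose in both scalings, with median log2 differences of 1.5 and 0.995, and Gar1, a component of small nucleolar particles, was the exception. Npm1, nucleophosmin, had 2450, 2767 and 3095 CPM in MEP and 1451, 1174 and 996 in LSK libraries, a log2 difference of 1.83 ± 0.33, and Ncl, nucleolin, had 2289, 2395 and 2587 against 1386, 1262 and 1136. Genes of nuclear oxidative phosphorylation rose in 29 of 35 cases in all-gene and 22 in expressed-gene scaling, with Uqcrc1, a complex III core protein, at 1.78 ± 0.39. Of 12 mitochondrially encoded RNAs 7 rose in all-gene and 5 in expressed-gene scaling, against 36.1% and 26% of all expressed genes. MEP replicate 3 carried 0.907% of its counts on mitochondrial genes against 0.427% to 0.553% in the other 5 libraries, and mt-Cytb stood at 1355, 1527 and 2447 CPM in MEP against 1402, 1396 and 1036 in LSK libraries. The rise of mt-Cytb, 1.06 ± 0.32 (edgeR adjusted p = 0.00814), kept its call without that library and lost it without LSK replicate 3 (0.86, adjusted p = 0.0683, edgeR).

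Cell division genes rose to a lesser degree. Of 38 expressed mitosis genes 25 rose in all-gene scaling and 19 in expressed-gene scaling, and of 39 DNA replication genes 24 and 18 did. The shares over all expressed genes were 36.1% and 26%. Ccnb1, the mitotic cyclin B1, had 688, 574 and 632 CPM in MEP and 380, 321 and 313 in LSK libraries, a log2 difference of 1.55 ± 0.30, and Rrm1, a ribonucleotide reductase subunit, rose by 1.27 ± 0.29 (edgeR adjusted p = 0.000146 and 0.000905). Top2a, topoisomerase II alpha, did not follow. It had 458, 383 and 504 CPM against 594, 583 and 599, and its difference was 0.24 ± 0.30 in all-gene and -0.23 in expressed-gene scaling. Mcm6, a helicase subunit, had overlapping libraries and differed by 0.54 ± 0.67.

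Biosynthetic genes were mostly higher in MEP cells. Of 18 expressed amino acid and ATF4 genes 13 rose and Nupr1 and Slc1a5 fell in all-gene scaling. The difference of -0.61 for Slc1a5 was lost without any 1 of the LSK libraries or MEP replicate 3 (-0.39 to -0.68). Asns, asparagine synthetase, had 923, 886 and 992 CPM in MEP and 112, 119 and 133 in LSK libraries, a log2 difference of 3.61 ± 0.40 (edgeR adjusted p = 3.03e-08), and Shmt2, the mitochondrial serine hydroxymethyltransferase, rose by 1.45 ± 0.34. Phgdh, which opens serine synthesis, had overlapping libraries of 792, 776 and 661 against 798, 751 and 699 CPM. Of 18 cholesterol genes 12 rose in all-gene and 8 in expressed-gene scaling, among them Sqle, squalene epoxidase, with a log2 difference of 1.75. Srebf2, the factor that activates the pathway, was lower in every MEP library, at 125, 135 and 131 CPM against 213, 326 and 292. Its difference of -0.40 ± 0.42 did not pass in all-gene scaling and that of -0.90 did in expressed-gene scaling (edgeR adjusted p = 0.432 and 0.0265).

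**Figure D3:**
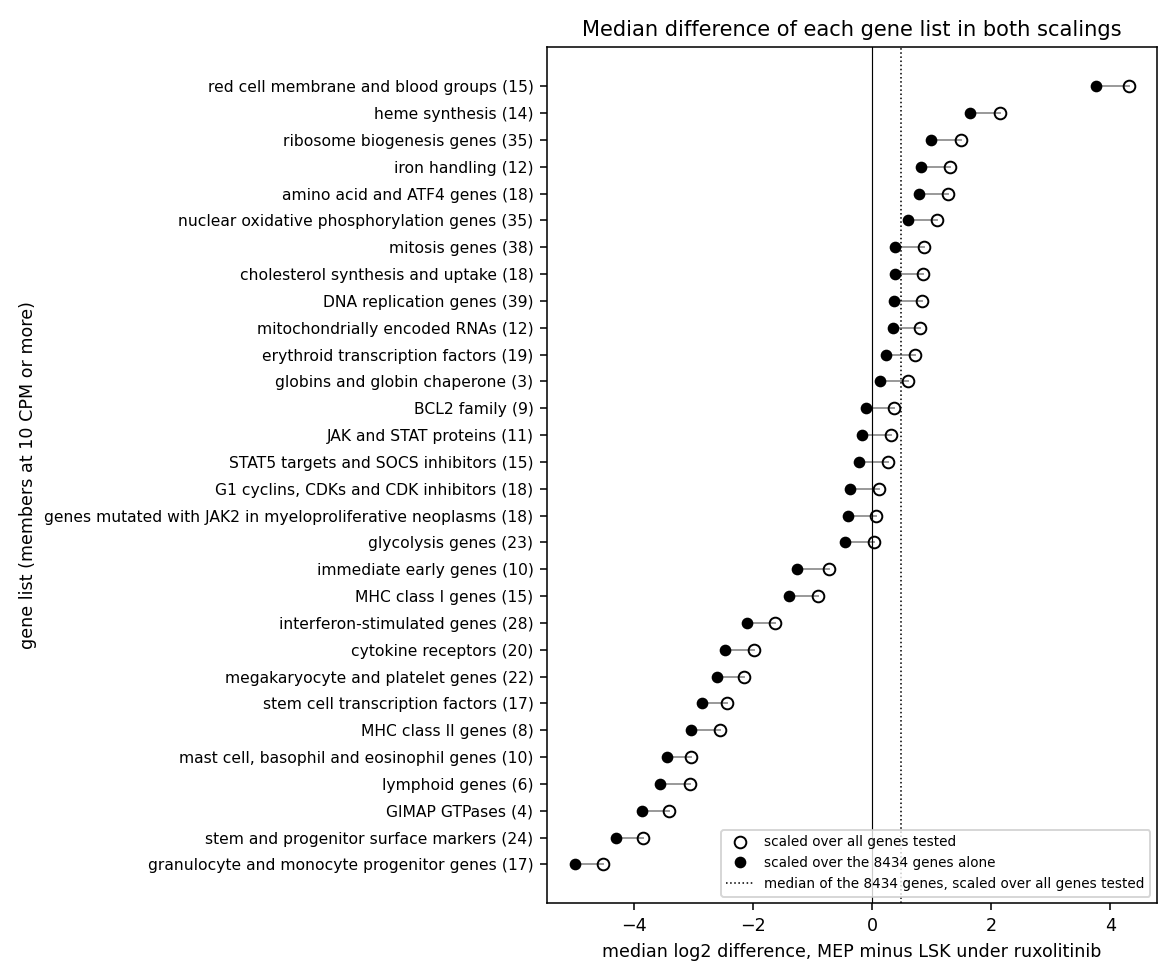
Median log2 difference, MEP minus LSK under ruxolitinib, of each gene list with 3 or more expressed members (number in brackets). Open circles use all-gene scaling and filled circles expressed-gene scaling, and red cell membrane genes stand highest (4.32 and 3.77) and granulocyte and monocyte progenitor genes lowest (-4.51 and -4.99).

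The cell type difference under ruxolitinib was then set against that under vehicle in batch C, which asks whether the drug widened or narrowed it. In expressed-gene scaling edgeR called 2031 expressed genes higher and 2138 lower in MEP cells under vehicle (24.1% and 25.3%, in all 49.4%), with 3 MEP and 2 LSK libraries. Genes called higher in both numbered 1634, or 74.4% of those under ruxolitinib and 80.5% of those under vehicle, and genes called lower in both 1850, or 76.1% and 86.5%. The difference of the 2 differences, tested as an interaction in the joint fit, passed for 36 of the 8434 expressed genes (0.427%) and for 83 of all genes tested (0.292%, of which 0.123% positive and 0.169% negative). It was positive for 33 of the 36 (0.391% of expressed genes, against 0.0356% negative), that is, MEP cells stood less far below or further above LSK cells under ruxolitinib. In expressed-gene scaling 42 passed (0.498%), 32 of them positive (0.379%) and 10 negative (0.119%).

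**Figure D4:**
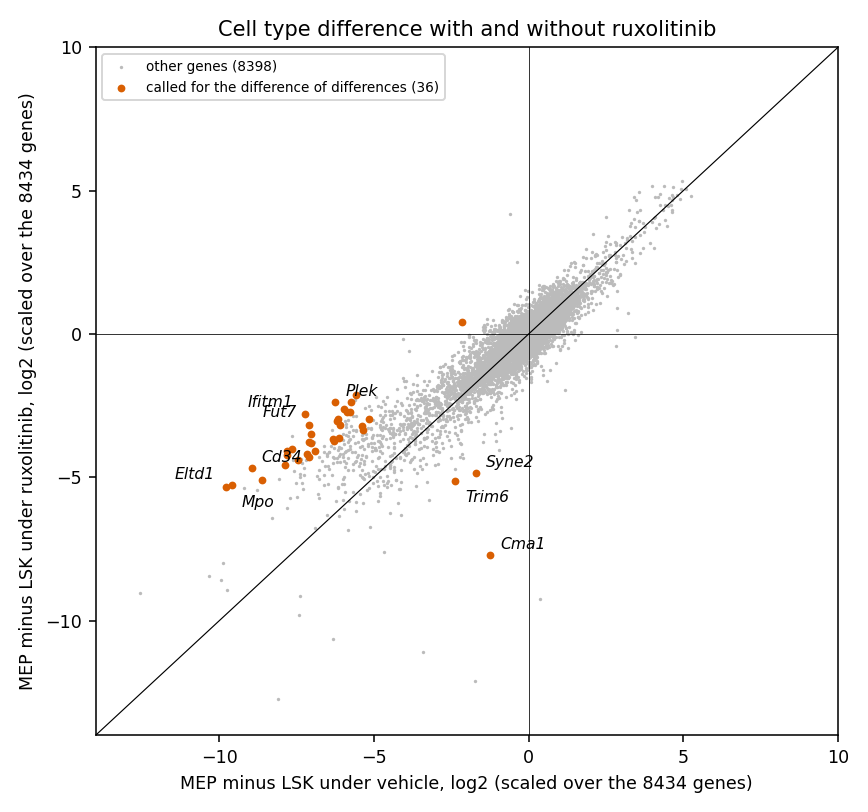
Log2 difference, MEP minus LSK, under ruxolitinib (vertical) and under vehicle (horizontal) in batch C for the 8434 expressed genes, both in expressed-gene scaling. Orange points are the 36 genes called for the difference of the 2 differences in all-gene scaling, of which 33 lie above the line of equal differences and 3 below it.

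Most of the 33 positive genes were on none of the gene lists. Of those on a list, Itga2b, Plek, Selp and Sdpr were on the megakaryocyte list, Cd34 and Cd53 on that of stem and progenitor surface markers, Meis1 and Mycn on that of stem cell factors, Mpo and Ms4a3 on the granulocyte and monocyte progenitor list, Lyz2 on the neutrophil and monocyte list and Serpina3g on that of STAT5 targets. Of these listed genes, Selp, Sdpr, Mycn and Serpina3g did not pass in expressed-gene scaling (edgeR adjusted p from 0.0517 to 0.0902). Eltd1, an adhesion receptor gene, had 1.19, 0.869 and 0.176 CPM in MEP cells under vehicle and 4.99, 11.7 and 22.4 under ruxolitinib. In LSK cells it had 673 and 724 CPM under vehicle and 615, 522 and 610 under ruxolitinib. The MEP libraries of the 2 treatments did not overlap, and the LSK levels under ruxolitinib were slightly below those under vehicle. The interaction was 4.56 ± 0.74 on the log2 scale (edgeR adjusted p = 0.00418). Eltd1 and the genes that follow were picked among called genes, so such a separation is not a separate result. Mpo had 2.44, 3.42 and 0.605 CPM in MEP cells under vehicle, far below the levels under ruxolitinib given above, and 949 and 2622 in LSK cells. Cd34 had 2.5, 1.57 and 0.302 in MEP and 616 and 921 in LSK cells under vehicle. Their interactions were 4.58 ± 0.83 and 4.43 ± 0.81 (edgeR adjusted p = 0.00963 each). Ifitm1, an interferon-induced membrane protein gene, had 39.5, 46.7 and 68.4 CPM in MEP cells under ruxolitinib and 4.97, 1.91 and 1.08 under vehicle, against 422, 367 and 422 and 185 and 668 in LSK cells. Itga2b had 16.5, 5.35 and 6.73 CPM in MEP cells under vehicle and 528 and 555 in LSK cells, an interaction of 3.45 ± 0.57.

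Marker sums are given beside these genes, but some hold interaction genes and are not separate from them. Itga2b is a megakaryocyte marker, Mpo and Ms4a3 are granulocyte and monocyte progenitor markers, and Cd34 and Meis1 are LSK markers. Itga2b alone stood at 70.1 to 126 CPM and Mpo at 16.3 to 79.9 in MEP libraries under ruxolitinib. In MEP libraries the summed CPM of megakaryocyte markers was 15.4 to 37 under vehicle and 113 to 223 under ruxolitinib, and that of granulocyte and monocyte progenitor markers 3.71 to 12.6 and 29.3 to 105. LSK markers summed to 229 to 599 and 531 to 693, and mast cell and basophil markers to 2.27 to 5.91 and 8.63 to 30.8. Later red cell markers summed to 177 to 1020 under vehicle and 161 to 190 under ruxolitinib. The 2 eosinophil markers summed to 92.3 and 7150 in the LSK vehicle libraries and 1.74 to 28.9 in the LSK ruxolitinib libraries. In LSK libraries the megakaryocyte sums were 752 to 1030 under vehicle and 880 to 975 under ruxolitinib. The part of other cells in the gates in these results was not tested. Vehicle was sampled at day 0 and ruxolitinib at day 7, so drug and elapsed time cannot be told apart.

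Only Cma1, Syne2 and Trim6 were negative among the 36. In expressed-gene scaling Trim6 passed (edgeR adjusted p = 0.0258), and Cma1 and Syne2 did not (edgeR adjusted p = 0.0607 and 0.0545). Cma1, a mast cell chymase gene, had 1.7 and 1.04 CPM in LSK cells under vehicle and 77.7, 27.6 and 55.3 under ruxolitinib, with at most 0.698 in any MEP library. Syne2, which encodes a nuclear envelope protein, had 8.2, 14.6 and 3.88 CPM in MEP cells under vehicle and 1.39, 0.631 and 0.571 under ruxolitinib, and Trim6, a ubiquitin ligase gene, 4.07, 4.12 and 1.66 against 0.545, 0.252 and 0.72. Their LSK libraries overlapped between treatments.

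The interaction calls rested on few libraries. All 36 genes kept their sign in each of the 18 other settings run, but without LSK vehicle replicate 2, which leaves 1 LSK vehicle library assumed to vary like the other groups, edgeR called 0 of the expressed genes, with 381 (4.52%) at an unadjusted p under 0.05. The count was 3 without LSK ruxolitinib replicate 3, 13 without LSK ruxolitinib replicate 2 or MEP ruxolitinib replicate 3 and 18 without MEP vehicle replicate 2. It was 60, 98, 105 and 121 without MEP vehicle replicate 1, MEP ruxolitinib replicate 1, LSK ruxolitinib replicate 1 and LSK vehicle replicate 1. A fit of the batch C libraries over expressed genes alone, chosen after seeing the data, also called 0, with 678 (8.04%) at an unadjusted p under 0.05, and DESeq2 called 134.

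**Figure D5:**
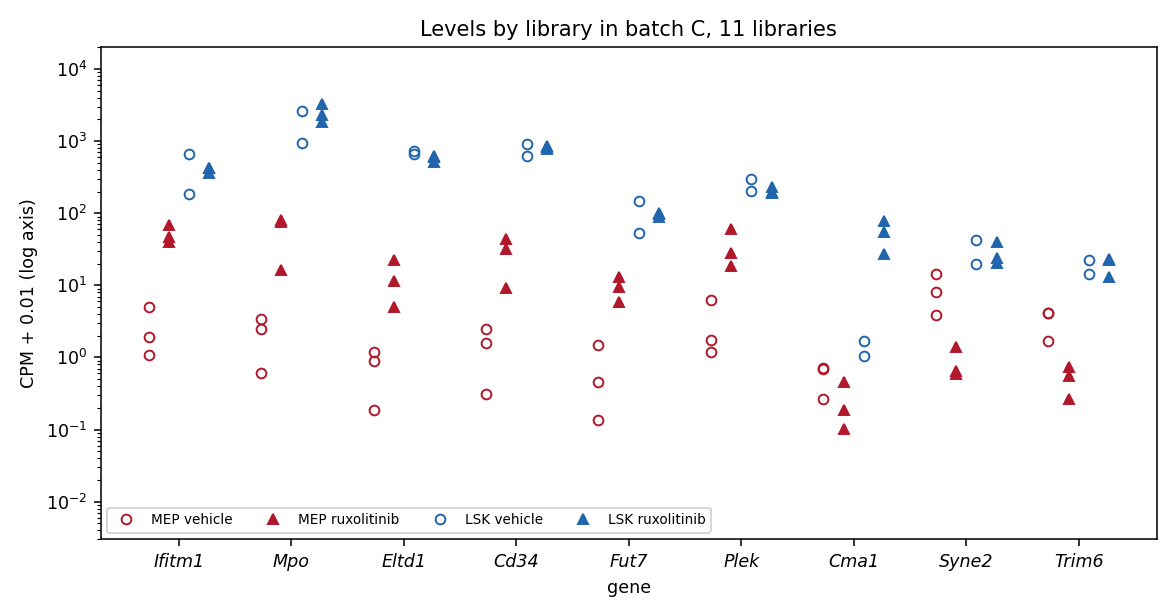
CPM + 0.01 (log axis) of the 6 genes with the largest positive interactions and the 3 with negative ones in the 11 libraries of batch C, with MEP in red, LSK in blue, vehicle as open circles and ruxolitinib as filled triangles. MEP libraries under ruxolitinib lie above those under vehicle for the first 6 genes, and Cma1 differs in LSK libraries. The genes were chosen among those called, so these separations are not a separate result.

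The erythroid genes that set MEP cells apart were not among the interaction calls. Rhd had 661, 1180 and 556 CPM in MEP cells under vehicle and 18.7 and 36.6 in LSK cells, an interaction of 0.58 ± 0.72 (edgeR adjusted p = 0.747). For Gata1 the interaction was -0.04 ± 0.44 and for Epor 0.24 ± 0.65. Klf1 varied widely among MEP libraries under vehicle, with 104, 524 and 604 CPM, and its interaction was 1.20 ± 1.22. Tfrc stood at 1822, 1617 and 2641 CPM in MEP and 256 and 136 in LSK cells under vehicle, above its levels under ruxolitinib in both cell types (a difference not tested here), and its interaction was 0.18 ± 0.56. Socs2 had 12.7, 17.3 and 14.4 CPM in MEP and 85.4 and 56.8 in LSK cells under vehicle, also above its levels under ruxolitinib, with an interaction of -0.90 ± 0.47. A difference that did not pass at this spread does not show that the cell types responded alike.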

How the data were processed

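Gene counts of sorted mouse marrow cells were analysed. The deposited table holds raw counts per gene symbol, and the tools named in the submitters' processing notes are featureCounts and STAR, with build mm10. Versions, annotation and strand setting are not named there, so overlapping genes and close family members may share reads. Counts were tested with edgeR 4.0.16 (R 4.3.3), quasi-likelihood F test, two-sided, on all 32 libraries with a mean per group. TMM factors were used, low genes were removed by filterByExpr (minimum count 10) and p-values were adjusted by Benjamini-Hochberg (threshold 0.05). The procedure was tested on simulated data with few changed genes, balanced in direction, which cannot test the scaling of the libraries here. Total counts were 26511752 to 55473241 in the 6 libraries, and deeper libraries measure low genes more precisely. Libraries of a group differed by more than sampling noise (chi-square per degree of freedom of at least 37.3). Batch C vehicle columns carry sample numbers that also stand in batch A vehicle columns, 1 of them in both cell types; the labels do not say what they mean, and the joint fit (22 residual degrees of freedom) treats all libraries as independent. Named genes were the 12 largest rises and 12 largest falls among called genes whose libraries did not overlap (passing over immunoglobulin and T cell receptor segments and unnamed or predicted transcripts), 6 in each direction for the interaction (3 qualified as negative), Jak2, up to 6 members per list by mean CPM and 12 genes by role. Further list members, given as examples or exceptions, were named after their values were seen. Members and lists were chosen with earlier results of these data known. Positions are GENCODE M21, to which 90.6% of the expressed symbols matched. Other settings tried were DESeq2 1.42.0, RLE factors, dropping the count filter, fewer libraries (batch C alone, the 6 alone) or genes, replicate blocks (edgeR and limma 3.58.1 voom), other CPM thresholds and leaving out each library.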

Additional observations from a re-analysis of the deposited data

Results flagged for a closer look

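The cell type difference, MEP minus LSK, differed between ruxolitinib and vehicle of batch C in edgeR's interaction test for each of 18 named genes. Among genes less far below the LSK level in MEP cells under ruxolitinib, the interaction on the log2 scale was 4.69 for Ifitm1, 4.58 for Mpo, 4.56 for Eltd1, 4.43 for Cd34, 4.16 for Fut7, 3.91 for Plek, 3.83 for Mycn, 3.75 for Lyz2, 3.51 for Ms4a3, 3.45 for Itga2b, 3.42 for Serpina3g, 3.33 for Sdpr, 3.31 for Cd53, 3.28 for Selp and 2.76 for Meis1. The interaction was -2.64 for Trim6, -2.96 for Syne2 and -6.44 for Cma1. Adjusted p-values from edgeR ran from 0.00418 to 0.044. For the 6 surface, platelet and stem cell genes Cd34, Cd53, Itga2b, Selp, Plek and Meis1, the MEP libraries under ruxolitinib were above every MEP library under vehicle. These 6 were picked among genes called in the same libraries, so this separation is not a separate result. Each of the 18 calls was lost when at least 1 library was left out, 6 were lost in expressed-gene scaling, and the sign held in all settings run. The 6 lost in expressed-gene scaling were Cma1, Mycn, Sdpr, Selp, Serpina3g and Syne2. The marker sums given with the account of the 18 genes include some of the genes themselves, and the part of other cells was not tested.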

How the results depend on the processing

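Values here are log2 differences or counts of genes called, and the cause of each change was not tested unless stated. Of 178 named genes followed under ruxolitinib 151 were called, 18 of these lost the call when 1 library was left out, 8 lost it in expressed-gene scaling, and no called gene changed sign in the settings run. The number of expressed genes called, 4328, stayed within 1.5 times in all settings (3083 to 4329 with 1 library left out). The number higher, 3042, was 1542 with library totals alone (a setting added after seeing the data), 1786 without a count filter and 1953 to 3092 with 1 library left out, the lowest without LSK ruxolitinib replicate 3. The number lower, 1286, was 1931 in a fit of the 6 libraries, 2751 in that fit with expressed genes alone (added after seeing the data), 2430 in expressed-gene scaling, 2848 with library totals alone and 1052 to 1321 with 1 library left out. With fewer genes to count it was 499 for genes at 10 CPM or more in both cell types and 806 at a threshold of 20 CPM. The 12073 calls over all genes tested became 7021 to 14017 with 1 library left out, the lowest without LSK ruxolitinib replicate 3. Same-numbered MEP and LSK libraries did not deviate together (correlations 0.012, -0.078 and 0.065), and with the replicate number as a block 6998 of all genes tested and 4844 expressed genes were called, or 7827 of all genes with limma voom and a random replicate block.

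For the interaction, the 83 calls over all genes tested were 34 with batch C alone, 620 with DESeq2, 32 with library totals, 158 without a count filter and 0 to 1047 with 1 library left out. The 36 expressed genes were 0 with batch C and expressed genes alone, 134 with DESeq2, 22 with library totals and 0 to 121 with 1 library left out. Those 33 higher were 0, 98 and 18 in the same settings and 0 to 115 with 1 library left out. Those 3 lower were 1 with batch C alone, 0 with batch C and expressed genes alone, 36 with DESeq2, 10 in expressed-gene scaling, 12 without a count filter, 5 with RLE factors and 0 to 24 with 1 library left out.

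Genes that had not passed changed sign as follows. In expressed-gene scaling Cd47 was at -0.2016, Hbb-b1 at -0.1126, Jak1 at -0.1125, Jak2 at -0.3766, Stat6 at -0.1395 and Top2a at -0.2312. In the fit of the 6 libraries and expressed genes alone, without a replicate block, the same genes were at -0.2067, -0.1288, -0.1182, -0.3791, -0.1453 and -0.2359, and with library totals at -0.3687, -0.297, -0.2882, -0.5434, -0.3142 and -0.4013. Library totals also gave -0.03919 for Hbb-b2, -0.1264 for Mcm6 and -0.01208 for Phgdh. Without a count filter Cd47, Jak2 and Top2a were at -0.05862, -0.2429 and -0.07911. Jak2 was at -0.04718 with the replicate block, -0.03765 in the 6 libraries without it, -0.1107 with voom and the random replicate block and -0.06167 to 0.2202 with 1 library left out, negative without MEP ruxolitinib replicate 3. Hbb-b1 was at -0.0603 to 0.9767 with 1 library left out, negative without MEP ruxolitinib replicate 2 or LSK ruxolitinib replicate 3 (-0.01682). Low counts limit genes near the 10 CPM threshold and those near 0 in MEP cells. The fits that leave out an LSK vehicle library rest on 1 library assumed to vary like the other groups.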

Other observations

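Counts for further lists in MEP against LSK cells under ruxolitinib are read against the 51.3% of all expressed genes called in all-gene scaling (36.1% higher and 15.2% lower), with examples chosen after their values were seen. The G1, BCL2, immediate early and JAK2-related lists below had smaller shares called in either direction than that. Of 18 expressed G1 genes 5 rose and 1 fell in edgeR's test in all-gene scaling, and 4 rose and 4 fell in expressed-gene scaling. Ccne1, which encodes cyclin E1, had 26.6, 38.5 and 32.6 CPM in MEP and 8.7, 7.35 and 7.43 in LSK libraries, a log2 difference of 2.71 ± 0.39 (SE; edgeR adjusted p = 2.34e-06). The one that fell in all-gene scaling was Cdkn2d, the CDK inhibitor p19, by 1.53 on the log2 scale. Among 9 expressed genes of the BCL2 family the death-promoting Bax and Bid rose, by 1.31 ± 0.32 and 1.22 ± 0.30, and the survival genes Bcl2 and Bcl2l1 fell. Bcl2 had 1.7, 3.37 and 5.34 CPM in MEP and 37.3, 39.2 and 42.5 in LSK libraries, and passed the 10 CPM threshold through its LSK level.

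Of 23 expressed glycolysis genes 6 rose and 8 fell in all-gene scaling, and 5 and 12 in expressed-gene scaling. Pklr, the pyruvate kinase of red cells and liver, had 154.7, 133.3 and 124.6 CPM in MEP and 7.03, 10.4 and 2.75 in LSK libraries, and the lactate exporter gene Slc16a1 rose by 2.42 ± 0.57. Hk3, a hexokinase of myeloid cells, and Ldhb, a lactate dehydrogenase subunit, fell by 4.38 and 4.47 on the log2 scale. Of 10 expressed immediate early genes 4 fell, among them Zfp36, which speeds mRNA decay, and Dusp6, a phosphatase of ERK, by 2.74 and 1.88. Of 18 genes mutated together with JAK2 in myeloproliferative neoplasms 3 rose and 5 fell in all-gene scaling, and 2 and 7 in expressed-gene scaling. U2af1, a splicing factor gene, rose by 1.16 ± 0.29.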
